A study of Mus musculus with 20 samples.

Results

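Among 10 hippocampal RNA libraries from mice that all carry the same tau transgene, the astrocyte filament gene Gfap ranged from 661 to 2776 CPM, and the libraries were ordered by it. The 10 are those titled PS19 or PS19/C3aR KO, out of 20 libraries in the series, and no other library was split. CPM (depth-normalised read count) is a gene's count scaled by the sum of all gene counts in that library, and the 5 libraries with the highest value were set against the 5 with the lowest. The sides were thus selected on the measured Gfap values: Gfap itself, and every other gene measured in the same 10 libraries, is described here without a test wherever the sides are compared.

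The 20 libraries were made from hippocampal polyadenylated RNA of male C57BL/6J mice at the age of 9 months, in 4 groups of 5: PS19/C3aR KO, PS19, C3aR KO and WT. PS19 mice express mutant human tau, of a kind that causes inherited frontotemporal dementia, from the promoter of the prion protein gene Prnp, and with age they accumulate tau aggregates and lose hippocampal neurons. C3aR is the receptor for C3a, a fragment released from complement component C3, and its gene is C3ar1. The labels give neither the design of the C3aR deletion nor whether each library came from its own animal.

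Astrocytes respond to injury and to aggregated protein by astrogliosis, a change of shape and gene expression in which the intermediate filament proteins Gfap and vimentin accumulate. Cytokines of the interleukin-6 family, which signal through JAK kinases and the transcription factor Stat3, are well-known inducers, and activated microglia are a main source of signals that drive astrocytes into this state. In tau-transgenic hippocampus astrogliosis and microgliosis develop side by side. In whole tissue a higher count can come from more cells of a type or from more RNA per cell, and these cannot be told apart here.

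The targeted gene C3ar1 (chr6:122847140-122856157 in GRCm38, the build of the deposited counts) went against the labels. It stood at 18.4, 18.7, 16.2, 15.6 and 17.5 CPM in the libraries labelled PS19/C3aR KO, against 11.9, 9.26, 12.5, 14.0 and 4.86 CPM in those labelled PS19. The libraries labelled C3aR KO had 14.4, 14.4, 16.9, 18.0 and 16.1 CPM, against 2.21, 1.88, 2.03, 1.66 and 2.34 CPM in WT. All 10 libraries labelled as knockouts thus had more C3ar1 reads than all 10 others, and the genotype names below are those of the labels.

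The transgene, by contrast, was even across the 10 libraries. Prnp, whose promoter and untranslated exons are part of the PS19 construct, had 1989, 1939.9, 1861, 1924 and 1951 CPM in the high-Gfap libraries, given here and below in the order PS19 1, 2, 3, 4 and PS19/C3aR KO 1. It had 1838, 2023, 1879.5, 1955 and 1826 CPM in the low-Gfap libraries, in the order PS19 5 and PS19/C3aR KO 2, 3, 4 and 5, and 807 to 914 CPM in the 10 non-transgenic libraries. Every transgenic library lay well above every non-transgenic one, and the sides overlapped, with a log2 difference of 0.0093 (SE 0.066). The endogenous tau gene Mapt, to which reads of human tau may in part align, had 591 to 643 CPM in the high-Gfap libraries and 601 to 658 CPM in the low-Gfap ones, against 476 to 598 CPM in the non-transgenic libraries.

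Gfap (chr11:102887336-102897200, minus strand) had 2544, 2073, 2670.0, 2776 and 1897 CPM in the 5 high-Gfap libraries and 876, 769.6, 1502, 1044 and 661 CPM in the 5 low-Gfap ones. The 10 non-transgenic libraries ranged from 262 to 449 CPM with a median of 408. The means were 2392 ± 386 CPM on the high side, 970.4 ± 329 on the low side (SD, n = 5 each) and 387 ± 59.9 in the non-transgenic libraries (SD, n = 10). The lowest of all transgenic libraries, PS19/C3aR KO 5, was still above the highest non-transgenic one. The last library inside the high side was PS19/C3aR KO 1 at 1897 CPM, and the first outside it was PS19/C3aR KO 3 at 1502 CPM, so the boundary does not fall in the widest gap of the series.

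**Figure D1:**
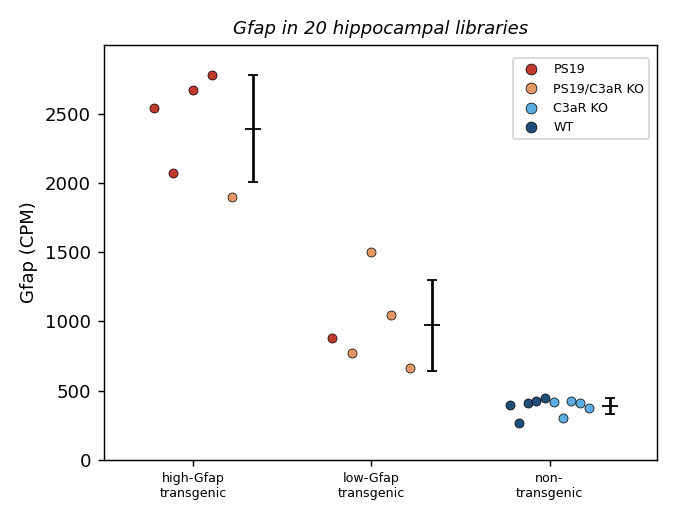
Gfap in CPM (vertical axis) in the 5 high-Gfap transgenic, 5 low-Gfap transgenic and 10 non-transgenic libraries. Each point is 1 library coloured by its label, and the bars give the mean and SD of each set. PS19/C3aR KO library 3, at 1502 CPM, is the highest of the low side.

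The sides were not balanced over the C3aR label. The high side holds 4 of the 5 PS19 libraries and 1 of the 5 labelled PS19/C3aR KO, and the low side holds the other 4 labelled PS19/C3aR KO and PS19 library 5. Mean Gfap was 1175 CPM in the libraries labelled PS19/C3aR KO and 2188 CPM in those labelled PS19, a difference of -1013 CPM (exact two-sided permutation test over 252 regroupings, p = 0.0397, n = 5 each). This call rests on single libraries, since leaving out any 1 of PS19 1 to 4 or PS19/C3aR KO 2 to 5 gave an exact p of 0.0556 to 0.0873, and on the log2 scale the difference of -0.90 had an exact p of 0.0714. To keep the label apart from the gradient, the label was a block in the fit of high minus low, and the difference then rests on PS19 libraries 1 to 4 against PS19 library 5 and on PS19/C3aR KO library 1 against libraries 2 to 5. For Gfap the log2 difference was 1.19 (SE 0.27), with 1.01 within PS19/C3aR KO and 1.51 within PS19.

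The 300 bases around the start of Gfap, from 250 before to 50 after it (RefSeq, GRCm38.p6, chr11:102897151-102897450, - strand), are shown because this gene orders the libraries. Capitals mark the only match to TTCNNNGAA, the core of the element bound by STAT factors, which here spans the start itself:
Gfap: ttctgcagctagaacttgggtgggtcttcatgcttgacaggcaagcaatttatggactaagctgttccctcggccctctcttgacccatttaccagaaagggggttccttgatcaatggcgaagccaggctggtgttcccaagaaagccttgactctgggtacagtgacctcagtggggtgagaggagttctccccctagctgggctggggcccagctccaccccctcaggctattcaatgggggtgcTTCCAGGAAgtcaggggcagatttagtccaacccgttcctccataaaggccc
Over all 27025 genes with such a sequence 9.55% held a match on either strand. Matches were found in 1 of the 14 pan-reactive astrocyte genes below and in 2 of the 24 JAK-STAT3 genes that had a sequence. A match describes these letters and is not a known site.

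Total gene counts ranged from 35622020 to 43044438 in the high-Gfap libraries, 33885850 to 46676667 in the low-Gfap ones and 33914416 to 47828111 in the non-transgenic ones. The share of reads on the ribosomal precursor Rn45s, a sign of RNA selection, was 0.873 to 2.54% on the high side and 1.04 to 3.65% on the low side. Of 16848 genes tested, edgeR's quasi-likelihood test with the label as a block called 0 after Benjamini-Hochberg adjustment in either direction, while 1330 (7.89%) had an unadjusted p below 0.05, 927 higher (5.50%) and 403 lower (2.39%). DESeq2 called 268 in the same design and limma-voom 0. As the rule used this contrast, nothing is read from these calls, and genes are described by their values and by 2 orderings. In the first, all 5 high-Gfap libraries lie above all 5 low-Gfap ones, which held for 572 genes (3.40%), or below them, which held for 86 (0.510%). In the second, called the same order within both labels, PS19 libraries 1 to 4 all lie above PS19 library 5 and PS19/C3aR KO library 1 above libraries 2 to 5, which held for 1453 genes (8.62%), and the reverse held for 325 (1.93%). The median log2 difference over all genes was -0.0056.

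Astrocyte genes did not all follow Gfap. Of 14 pan-reactive genes, those that astrocytes raise after both inflammatory and ischaemic injury, 10 had the same order within both labels and the sides did not overlap for 5 (Vim, Timp1, Cd44, Serpina3n and S100a6), with a median log2 difference of 1.11. Vimentin, the partner of Gfap in the filament network, had 161, 125, 196, 199.8 and 141 CPM in the high-Gfap libraries, against 64.4, 56.7, 101, 106 and 58.4 CPM in the low-Gfap ones and 29.7 to 48.9 CPM in the non-transgenic ones, a log2 difference of 1.07 (SE 0.27) between sides. Its 2 highest low-side libraries were PS19/C3aR KO 3 and 4, which are also the 2 highest of the low side for Gfap. Serpina3n, a secreted serine protease inhibitor, had 196, 147, 169, 228 and 168 CPM on the high side and 79.6, 50.2, 102, 100 and 48.7 CPM on the low side, a log2 difference of 1.15 (SE 0.27). On the low side it lay within the non-transgenic range of 34.5 to 101 CPM in 4 of 5 libraries, unlike Gfap and Vim. Reads of the Serpina3 family can be split between near-identical members, so its level is uncertain.

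The list of 20 general astrocyte markers, by comparison, had a median log2 difference of 0.15, and 2 of them, the water channel gene Aqp4 and the transcription factor gene Sox9, had sides that did not overlap. The glutamate transporter gene Slc1a2 had 4527, 4195, 5634, 4749 and 4243 CPM on the high side and 4211, 4485, 4824, 3944 and 4272 CPM on the low side, and the log2 difference was 0.031 (SE 0.12). Glul, which makes glutamine, differed by -0.081 (SE 0.12). Both overlapped between sides. Of 12 tested genes of the A1 list, induced in astrocytes by lipopolysaccharide, 6 had the same order within both labels and the median was 0.81. Among its 3 members with the most reads the class I gene H2-D1 differed by 0.78 (SE 0.35), the glucocorticoid-induced chaperone gene Fkbp5 by -0.029 (SE 0.17) and the adhesion gene Amigo2 by 0.013 (SE 0.23). Of 11 A2 genes, induced by ischaemia, 2 had the same order within both labels (Clcf1 and Ptx3) and the median was 0.38. The prostaglandin synthase gene Ptgs2 (0.11), S100a10 (0.31) and Tm4sf1 (0.19) all overlapped between sides.

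**Figure D2:**
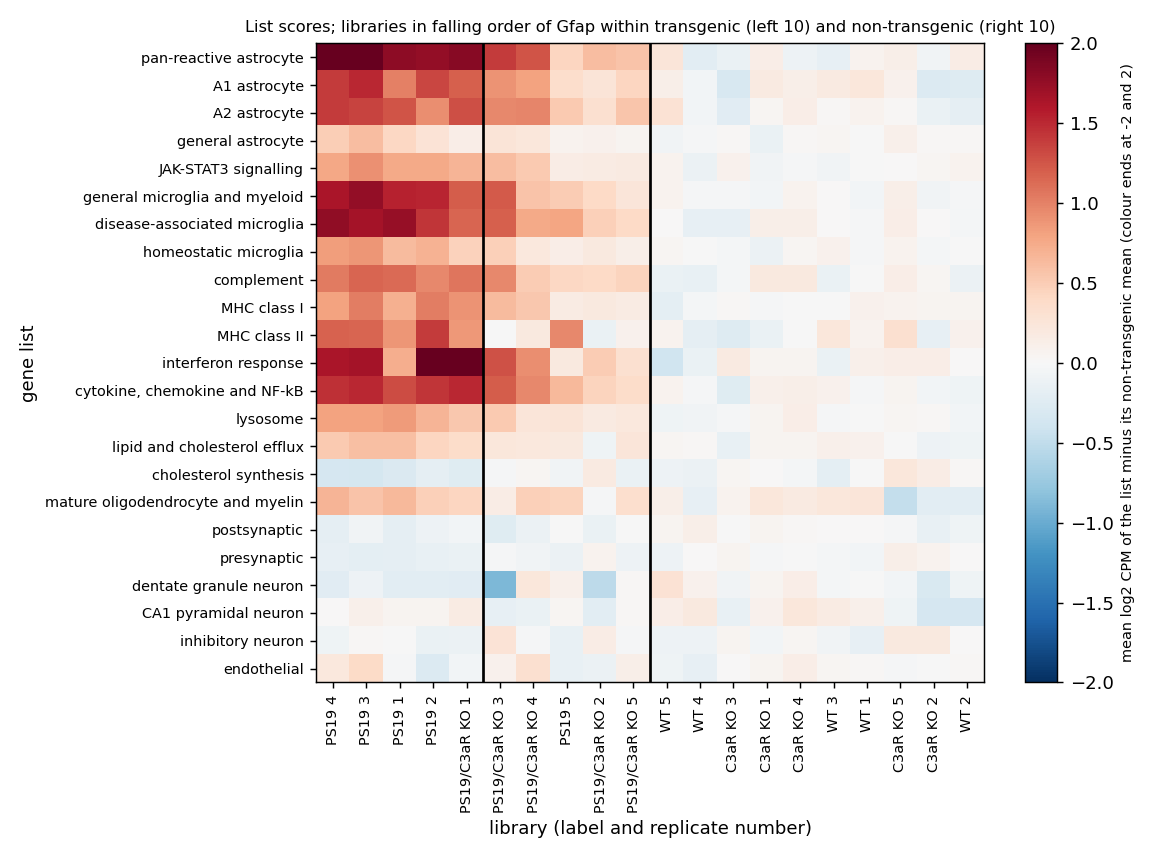
List scores, the mean log2 CPM of the genes of a list minus its mean over the 10 non-transgenic libraries, for 23 lists (rows) in 20 libraries (columns, in falling order of Gfap among the 10 transgenic and among the 10 non-transgenic libraries). Black lines separate the high-Gfap, low-Gfap and non-transgenic libraries. The pan-reactive astrocyte score is 1.76 to 2.14 in the high-Gfap libraries and 0.44 to 1.40 in the low-Gfap ones, and PS19/C3aR KO libraries 3 and 4 hold the highest low-side values.

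JAK-STAT3 signalling genes varied in how closely they followed the gradient. Of 27 tested genes 13 had the same order within both labels, the sides did not overlap for 7 (Stat3, Jak3, Clcf1, Bcl3, Cebpd, Ptpn6 and Il10ra), and the median log2 difference was 0.41. Osmr, the receptor subunit for oncostatin M, had 38.1, 30.0, 40.3, 48.3 and 33.5 CPM in the high-Gfap libraries, against 10.7, 14.9, 30.2, 19.3 and 12 CPM in the low-Gfap ones and 6.48 to 9.13 CPM in the non-transgenic ones. Its log2 difference was 1.29 (SE 0.34), and the sides overlapped because PS19/C3aR KO library 3 (30.2 CPM) passed PS19 library 2 (30.0 CPM). Bcl3, an atypical NF-kB regulator that Stat3 induces, had 5.85, 3.94, 4.67, 5.15 and 2.89 CPM, against 0.902, 0.815, 2.74, 2.27 and 1.22 CPM, a log2 difference of 1.49 (SE 0.49). Members with the most reads did not separate: the kinase gene Jak1 differed by -0.029 (SE 0.063), the shared receptor subunit gene Il6st by 0.073 (SE 0.12), and Junb, which is also an activity-induced gene, by -0.51 (SE 0.42). Interleukin-6 itself (Il6) and Cntf did not pass the filter on low counts.

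Microglial genes were ordered much as Gfap was. Of 31 general microglial and myeloid genes, 30 had a log2 difference above 0, 14 had the same order within both labels, the sides did not overlap for 12, and the median was 0.82. Csf1r, the growth factor receptor on which microglia depend for survival, had 210.5, 195, 213, 224 and 166 CPM in the high-Gfap libraries, against 125, 107, 168, 119 and 102 CPM in the low-Gfap ones and 82.8 to 109.5 CPM in the non-transgenic ones. The sides met at PS19/C3aR KO libraries 1 and 3, whose values of 166 and 168 CPM were nearly equal, and the log2 difference was 0.55 (SE 0.16).

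Markers of the resting and of the activated microglial state both ran with the gradient. Of 30 genes of disease-associated microglia, a state first described around amyloid plaques, 11 had the same order within both labels, the sides did not overlap for 10, and the median log2 difference was 0.55. Apoe, a lipid carrier made by astrocytes and by activated microglia, had 2713, 2197, 2503, 2514 and 2049.8 CPM in the high-Gfap libraries and 1686, 1498, 2019.6, 1691 and 1546 CPM in the low-Gfap ones, and differed by 0.38 (SE 0.12). Itgax, the integrin subunit CD11c and a marker of that state, had 31.0, 10.3, 11.5, 18.8 and 11.6 CPM, against 6.23, 3.43, 9.68, 2.42 and 0.922 CPM and 0.384 to 0.925 CPM in the non-transgenic libraries. It varied more within each side than Apoe did, from 0.922 to 9.68 CPM on the low side, and differed by 1.48 (SE 0.64). Of 17 homeostatic genes 9 had the same order within both labels, the sides did not overlap for 8 (among them Tmem119, P2ry13, Siglech, Sall1 and Gpr34), and the median was 0.38. Its members with the most reads are made by other cells too: cystatin C (Cst3) differed by 0.36 (SE 0.12), the matrix protein gene Sparc by 0.38 (SE 0.14) and Mef2a by -0.014 (SE 0.063). Of 9 border-associated macrophage genes 0 had sides that did not overlap and the median was 0.27, with Stab1 at 0.27, the mannose receptor gene Mrc1 at 0.18 and F13a1 at 0.47. The cells this list marks line vessels and meninges.

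Complement genes were mostly higher on the high side, with 20 log2 differences above 0 and 5 below. Of 25 tested genes 10 had the same order within both labels, the sides did not overlap for 8 (among them C1s1, C3, C4b, Serping1, Itgam, Itgax and Clu), and the median log2 difference was 0.63. C4b (chr17:34728139-34743902), the component cleaved by the C1 complex, had 396, 422, 508, 378 and 416 CPM in the high-Gfap libraries, against 164, 104, 223, 155 and 115 CPM in the low-Gfap ones and 52.6 to 82.2 CPM in the non-transgenic ones. Its log2 difference was 1.40 (SE 0.22), 1.55 within PS19/C3aR KO and 1.37 within PS19, and all 5 low-Gfap libraries were above all 10 non-transgenic ones. Reads shared with the near-identical C4a make the level of C4b uncertain. C1qa, a chain of the recognition unit C1q made by microglia, had 213, 187, 225, 211 and 103 CPM, against 64.9, 55.9, 128, 68.1 and 51.1 CPM. It differed by 0.55 within PS19/C3aR KO and 1.68 within PS19, and the sides overlapped because PS19/C3aR KO library 1 (103 CPM) was below library 3 (128 CPM). Clusterin (Clu), a secreted chaperone and complement inhibitor, had 1225 to 1664 CPM on the high side and 936 to 1178 CPM on the low side and differed by 0.39 (SE 0.11).

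**Figure D3:**
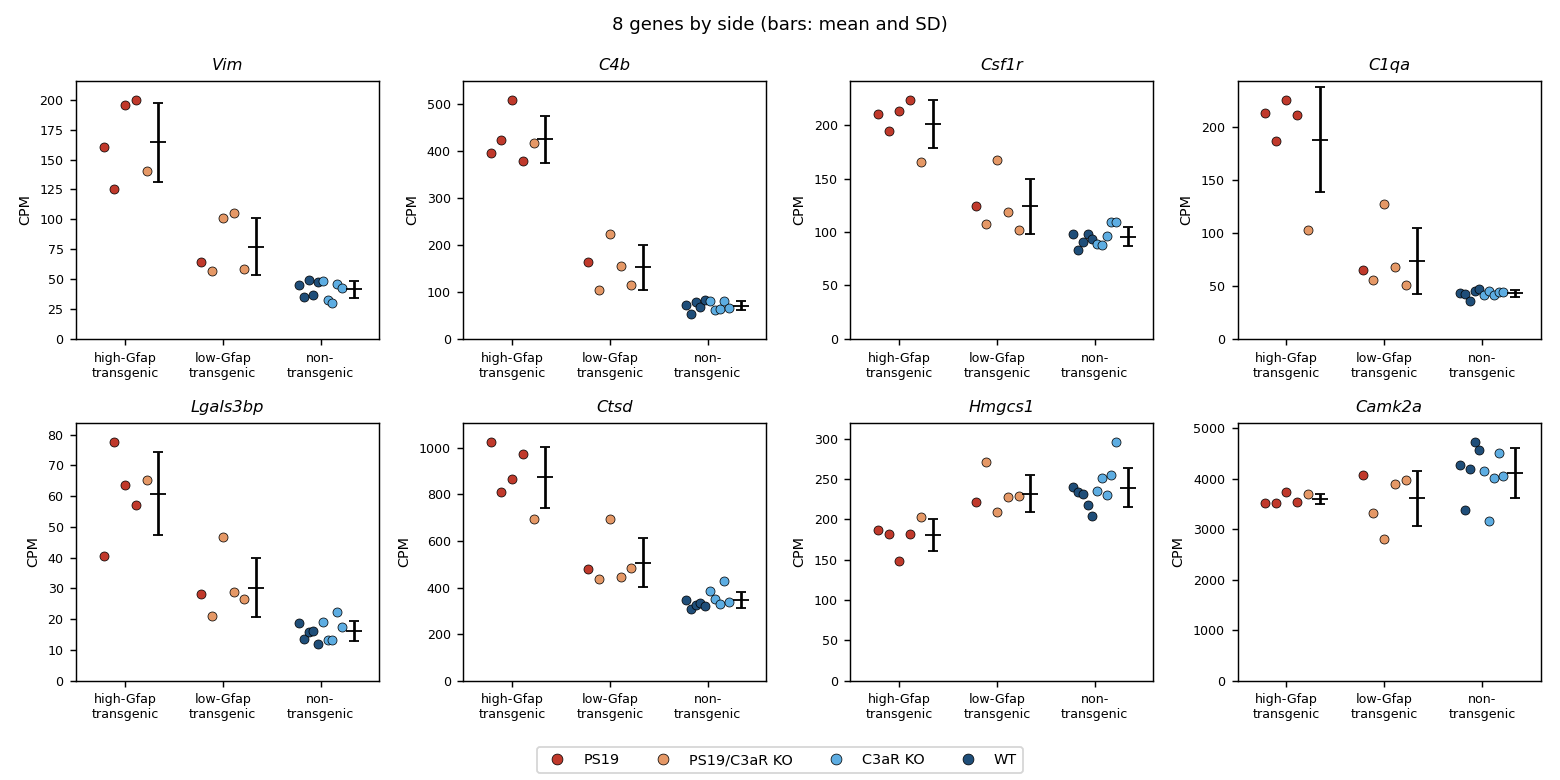
CPM (vertical axis, from 0) of Vim, C4b, Csf1r, C1qa, Lgals3bp, Ctsd, Hmgcs1 and Camk2a in high-Gfap transgenic, low-Gfap transgenic and non-transgenic libraries. Each point is 1 library coloured by label, and bars give the mean and SD. Vim, C4b and Hmgcs1 have sides that do not overlap, with Hmgcs1 lower on the high side, and the other 5 overlap.

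The genes of the interferon response had the widest median difference of the 46 gene lists examined. Of 29 genes 27 had the same order within both labels, all 29 had a log2 difference above 0, and the median was 1.34, with 1.24 within PS19/C3aR KO and 1.40 within PS19. The sides did not overlap for 3 (Bst2, Ifi27 and Ifitm3), since the list did not run in step with Gfap from library to library. Its score was 0.72 in PS19 library 1, 2.17 in library 2, 1.66 in library 3, 1.64 in library 4 and 2.01 in PS19/C3aR KO library 1. PS19 library 2 and PS19/C3aR KO library 1, the highest in interferon genes, were the 2 lowest of the high side in Gfap. Lgals3bp, a secreted glycoprotein that interferon induces, had 40.5, 77.6, 63.5, 57.1 and 65.3 CPM, against 28.1, 21.1, 46.8, 28.9 and 26.5 CPM, with a log2 difference of 1.05 (SE 0.27). Stat2, a subunit of the interferon-activated factor, had 29.5, 56.2, 40.9, 39.7 and 52.2 CPM, against 33.5, 34.1, 36.3, 34 and 30.4 CPM, and the sides overlapped. Ifi27 had 34.1, 45.1, 36.1, 32.2 and 47.6 CPM, against 31.1, 19.6, 29.0, 21.2 and 31.4 CPM.

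The promoters of Isg15 (a ubiquitin-like protein) and Ifit3 (an antiviral RNA-response protein), chosen after their values were seen, show the letters that many genes of this list share. Capitals mark the repeat of the interferon-stimulated response element, 2 copies of GAAA with any 2 bases between them, on either strand. In Isg15 (chr4:156200769-156201068, - strand) overlapping matches run together into 1 stretch, and Ifit3 (chr19:34583279-34583578, + strand) holds 2 separate matches on the opposite strand:
Isg15: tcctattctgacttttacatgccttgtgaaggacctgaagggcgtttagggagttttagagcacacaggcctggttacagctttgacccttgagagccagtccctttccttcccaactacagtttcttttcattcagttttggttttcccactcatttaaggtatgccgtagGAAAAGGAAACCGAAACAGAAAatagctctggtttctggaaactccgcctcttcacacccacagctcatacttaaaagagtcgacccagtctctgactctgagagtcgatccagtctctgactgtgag
Ifit3: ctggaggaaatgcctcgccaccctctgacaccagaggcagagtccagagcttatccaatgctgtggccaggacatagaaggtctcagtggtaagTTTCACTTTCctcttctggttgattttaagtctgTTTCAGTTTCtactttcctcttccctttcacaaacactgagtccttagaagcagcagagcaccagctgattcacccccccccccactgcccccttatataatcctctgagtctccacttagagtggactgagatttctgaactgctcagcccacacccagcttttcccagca
A match was present in 13 of the 22 list genes with a RefSeq promoter (59.1%) and in 1079 of 27025 genes overall (3.99%), over the same 300 bases. Isg15 had 1.84, 9.23, 5.04, 5.28 and 8.84 CPM in the high-Gfap libraries and 1.23, 2.20, 3.95, 3.36 and 1.6 CPM in the low-Gfap ones, with a log2 difference of 1.84 (SE 0.49). Ifit3 had 6.74, 26.3, 14.2, 14.1 and 21.5 CPM, against 6.45, 5.82, 13.5, 6.08 and 2.85 CPM, with 1.40 (SE 0.50). Both were highest in PS19 library 2 and PS19/C3aR KO library 1.

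Antigen presentation genes of both classes had log2 differences mostly above 0. Of 17 tested genes of MHC class I, which displays peptides to cytotoxic T cells, 13 had the same order within both labels, the sides did not overlap for 5 (H2-K1, B2m, Tapbp, Psmb8 and H2-T23), and the median was 0.62. The invariant chain B2m had 111, 161, 172, 132 and 112 CPM in the high-Gfap libraries and 65.2, 70.1, 109, 105 and 72.4 CPM in the low-Gfap ones, a log2 difference of 0.70 (SE 0.24). The peptide-loading factor gene Tapbp differed by 0.39 (SE 0.079), and the chaperone gene Calr, which all cells use, by 0.02 (SE 0.10). The 8 class II genes, 7 of them above 0, had a median of 0.46, and 0 had sides that did not overlap, with 0.77 within PS19/C3aR KO and 0.09 within PS19. Cd74, the class II chaperone, had 17.7, 28.8, 18.2, 32.7 and 15.4 CPM, against 21.2, 5.34, 9.92, 9.88 and 8.44 CPM, so PS19 library 5 of the low side was above 3 of the high-side libraries. H2-Aa, a class II chain, was 8.06 CPM in that library, above 3 of the 5 on the high side, and H2-DMa differed by -0.036 (SE 0.083). Members of the H2 family share reads, so their levels are uncertain.

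Of 29 tested cytokine, chemokine and NF-kB genes 14 had the same order within both labels, the sides did not overlap for 10 (Il1a, Il1b, Ccl12, Cxcl16, Nfkb2, Tnfaip2, Tnfrsf1a, Tnfrsf1b, Vcam1 and Nlrp3), and the median was 0.68. The adhesion molecule gene Vcam1 had 49.5, 43.2, 41.2, 46.2 and 45.1 CPM in the high-Gfap libraries and 36.9, 32.4, 32.5, 32.5 and 38.4 CPM in the low-Gfap ones and differed by 0.31 (SE 0.09). The 2 genes of the list with the most reads, the neuronal chemokine gene Cx3cl1 (-0.14) and the glial alarmin gene Il33 (0.09), overlapped between sides.

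Lysosomal genes were higher on the high side in smaller steps. Of 33 genes 17 had the same order within both labels, the sides did not overlap for 12, and the median was 0.34. Cathepsin D (Ctsd), the main aspartic protease of lysosomes, had 1024, 811, 864, 974 and 692 CPM in the high-Gfap libraries, against 479, 435, 693, 445 and 484 CPM in the low-Gfap ones and 308 to 429 CPM in the non-transgenic ones. PS19/C3aR KO libraries 1 and 3 were nearly equal, and the log2 difference was 0.65 (SE 0.18). Legumain (Lgmn), a protease that can cleave tau, had 173, 151, 165, 173 and 148 CPM, against 111, 114, 136, 117 and 108 CPM, with no overlap and a difference of 0.41 (SE 0.086). Prosaposin (Psap), which neurons make in quantity, differed by -0.0047 (SE 0.061), and cathepsin B (Ctsb) by 0.23 (SE 0.11).

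Genes for moving lipid and genes for making cholesterol lay on opposite sides of 0. Of 18 genes of lipid and cholesterol efflux 6 had the same order within both labels, the sides did not overlap for 4 (Apoe, Apoc1, Clu and Apod), and the median was 0.28. Apod, a glial lipid carrier, had 219.6, 228, 299.5, 277 and 239 CPM, against 157, 148, 178, 189 and 176 CPM, and differed by 0.55 (SE 0.12). Of 25 genes of cholesterol synthesis and its regulation 24 had a log2 difference below 0, 13 were lower on the high side within both labels, the sides did not overlap for 8, and the median was -0.31. Hmgcs1, which makes the precursor of the pathway, had 187, 182, 148, 182 and 203 CPM in the high-Gfap libraries, against 222, 271, 209.7, 228 and 229 CPM in the low-Gfap ones and 204 to 296 CPM in the non-transgenic ones, a log2 difference of -0.31 (SE 0.11). For Hmgcs1 the high-Gfap libraries were therefore the ones outside the non-transgenic range, and the low-Gfap libraries stayed within it. Srebf2, the transcription factor gene that drives the pathway, had 213, 229.6, 237, 212 and 239 CPM, against 255, 255, 239.7, 264 and 249 CPM, and differed by -0.17 (SE 0.064). The non-transgenic range of Srebf2 was 259 to 302 CPM, and all 5 high-Gfap libraries and 4 of the 5 low-Gfap ones lay below it.

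Other enzymes of the same pathway were among the 8 genes with the lowest log2 differences where the sides did not overlap. Among them were Pcdhb13 (-0.55), Gpr165 (-0.54), Tmem97 (-0.46), Il1f9 (-0.44), Stard4 (-0.42), Idi1 (-0.41) and Msmo1 (-0.40), taken from genes of a mean log2 CPM of at least 1 whose sides did not overlap. Idi1 and Msmo1 are enzymes of sterol synthesis, Stard4 carries cholesterol within the cell, and Tmem97 is a sterol-regulated membrane protein. Msmo1 had 51.5, 59.8, 47.0, 53.6 and 56.8 CPM in the high-Gfap libraries and 69.3, 77.8, 64.1, 77.8 and 68.0 CPM in the low-Gfap ones. The difference between sides was small beside those of the glial genes above, and no library crossed over, which the choice of these genes fixes. Pcdhb13 belongs to a gene cluster whose members share reads, so its level is uncertain.

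The promoter of Hmgcs1 (chr13:119690101-119690400, + strand) is shown with its match to TCACNCCAC, the sterol regulatory element bound by Srebf2, in capitals:
Hmgcs1: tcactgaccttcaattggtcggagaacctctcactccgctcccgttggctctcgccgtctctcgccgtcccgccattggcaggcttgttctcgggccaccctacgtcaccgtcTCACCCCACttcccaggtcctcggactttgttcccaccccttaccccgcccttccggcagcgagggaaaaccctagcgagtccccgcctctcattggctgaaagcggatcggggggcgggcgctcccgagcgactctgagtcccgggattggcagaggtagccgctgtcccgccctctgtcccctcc
It was the only 1 of 17 genes of the list with a promoter sequence that held a match, against 1.44% of all 27025 genes.

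Among oligodendrocyte lists, of 12 genes of disease-associated oligodendrocytes 6 had the same order within both labels and the median was 0.66, but the 5 whose sides did not overlap (C4b, Serpina3n, H2-K1, Cd9 and B2m) all stand in other lists described above. The 22 myelin genes had a median of 0.12, and the sides did not overlap for 1 of them (Cldn11). In all 5 high-Gfap libraries 16 of them were higher than in all 10 non-transgenic ones (6.98% of all genes), and in all 5 low-Gfap libraries 0 (0.582% of all genes). The list score was 0.42 to 0.69 on the high side and -0.025 to 0.47 on the low side, so the sides overlapped. Myelin basic protein (Mbp) had 2815 to 3473 CPM on the high side and 2219.6 to 3157 CPM on the low side, and differed by 0.094 (SE 0.12). Transferrin (Trf) differed by 0.30 (SE 0.13). The 16 precursor genes had a median of 0.032, with Bcas1 at 0.034, Olig1 at -0.014 and the growth factor receptor gene Pdgfra at -0.056.

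Most synaptic genes had small log2 differences below 0, 23 of 25 postsynaptic and 24 of 25 presynaptic ones. The median log2 difference was -0.072 for 25 postsynaptic genes and -0.12 for 25 presynaptic ones, of which Rims1, a scaffold of the release site, had sides that did not overlap. Camk2a, the main synaptic kinase, had 3514, 3517, 3733, 3543 and 3684 CPM in the high-Gfap libraries and 4077, 3318, 2798, 3894 and 3971 CPM in the low-Gfap ones, and differed by -0.093 (SE 0.13). The high-Gfap libraries lay inside the spread of the low-Gfap ones. Ppp1r9b (-0.035), Camk2b (-0.039), Snap25 (-0.15), Syt1 (-0.18) and Cplx2 (-0.17) overlapped as well. By region, 15 dentate granule genes, 12 of them below 0, had a median of -0.26, 12 genes of CA1 0.13, 13 of CA3 -0.013 and 22 of inhibitory neurons -0.063. Calb1, a calcium buffer of granule cells, had 78.7, 95.6, 76.0, 81.8 and 77.3 CPM, against 97.5, 119, 84.8, 107 and 102 CPM, lower on the high side within both labels with a difference of -0.36 (SE 0.12). Igfbp5, from the same list, was 0.33 (SE 0.15) and Sema5a -0.26 (SE 0.31). The dentate score was -0.23 to -0.11 in the 5 high-Gfap libraries. On the low side it lay below them in PS19/C3aR KO libraries 2 (-0.52) and 3 (-0.89) and above them in PS19 library 5 (0.099) and PS19/C3aR KO libraries 4 (0.23) and 5 (0.031).

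The most-read genes of the other neuronal lists differed in either direction. Among CA1 genes Mpped1 differed by 0.042, Wfs1 by -0.13 and Itpka by 0.0014. Among CA3 genes Nnat differed by 0.13, Spock1 by -0.044 and Hs3st4 by 0.023. In inhibitory neurons the GABA-synthesizing Gad1 differed by -0.14 and the channel gene Kcnc1 by -0.057. The 18 immediate early genes, which neuronal activity and handling induce within minutes, had a median of -0.37 with 18 of 18 below 0, and this came from 1 label, with -0.82 within PS19/C3aR KO and 0.057 within PS19. Egr1 had 210.1, 327, 343, 225 and 147 CPM on the high side and 251, 417, 413, 396 and 229 CPM on the low side, with wide overlap and a difference of -0.62 (SE 0.36), and Arc differed by -0.62 (SE 0.57) and Egr3 by -0.29 (SE 0.23).

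Markers of other tissue and cell types were read in the same way. The 6 tested neutrophil and monocyte genes had a median of 1.33, which came from PS19 library 3: S100a9, a granule protein of neutrophils, had 0.0697, 0.126, 19.3, 0.693 and 0.253 CPM on the high side and 0.164, 0.288, 0.0295, 0.900 and 1.03 CPM on the low side. Without that library the median was -0.13. The 6 tested T and NK cell genes, of 14, had a median of 1.18, but their levels were close to the floor, with Cd8a at 0.373 to 0.480 CPM on the high side and 0.164 to 0.443 CPM on the low side, and Cd4 differed by 1.01 (SE 0.34). Cd3e, Cd3g and 6 other members did not pass the filter. The 17 choroid plexus genes split the labels, with 3.47 within PS19/C3aR KO and -1.94 within PS19. Transthyretin (Ttr), the main product of the choroid plexus, had 4213, 1236, 39.1, 731 and 3691 CPM in the high-Gfap libraries and 3696, 15, 38.5, 219 and 3925 CPM in the low-Gfap ones, so Ttr did not run with Gfap. Ependymal genes followed it, with 0.83 within PS19/C3aR KO and -0.67 within PS19.

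Vascular lists had medians of -0.048 for 20 endothelial genes and 0.17 for 17 genes of mural cells and fibroblasts, and 0 genes of either list had sides that did not overlap. Red blood cells were represented by 1 tested gene, Alas2 (0.21). Genes of neighbouring regions had medians of -0.17 for 16 thalamic genes, with -0.61 within PS19/C3aR KO and 0.59 within PS19, and -0.16 for 14 striatal ones. Extracellular matrix genes had a median of 0.14 over 22 genes, with 4 in the same order within both labels, metallothionein and iron genes 0.21 over 13, with 2, and cell cycle genes 0.25 over 16, with 6 (among them the mitotic genes Top2a, Cdk1 and Ccna2). Cyclin D1 (Ccnd1) had 67.4, 60.6, 67.5, 71.7 and 60.9 CPM, against 56.5, 53.5, 56.5, 52.2 and 54.1 CPM, and differed by 0.17 (SE 0.065). Lists of basic cell functions lay near 0: -0.033 for 26 respiratory chain genes, 0.027 for 30 ribosomal protein genes, 0.036 for 27 chaperone and unfolded protein genes and -0.056 for 15 clock genes. The 14 glucocorticoid-responsive genes had a median of -0.13, and 3 (Klf9, Tsc22d3 and Pdk4) were lower on the high side within both labels. The 3 genes of the transgene and target (Mapt, Prnp and C3ar1) had a median of 0.0093, which is the value of Prnp, and 5 sex-linked genes 0.042. C3ar1 differed by 0.64 (SE 0.24), with 0.12 within PS19/C3aR KO and 1.27 within PS19, and its sides overlapped.

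The 8 genes with the highest log2 differences, among those of a mean log2 CPM of at least 1 whose sides did not overlap, were Cd300lf (2.15), Ly9 (1.80), Bcl3 (1.49), Itgax (1.48), Serpinf2 (1.44), C4b (1.40), Lox (1.36) and Igtp (1.35). Cd300lf, an inhibitory receptor of myeloid cells, had 3.58, 4.20, 8.01, 3.95 and 3.62 CPM in the high-Gfap libraries and 0.355, 1.41, 2.42, 1.48 and 1.6 CPM in the low-Gfap ones. Ly9, a receptor of the SLAM family on immune cells, had 3.67, 4.5, 5.47, 4.05 and 2.98 CPM, against 0.765, 0.911, 2.48, 1.05 and 0.624 CPM and 0.147 to 0.435 CPM in the non-transgenic libraries. Lox, which crosslinks collagen and elastin, had 5.53, 2.68, 3.36, 3.60 and 2.58 CPM, against 0.820, 1.27, 1.86, 2.12 and 1.17 CPM. Igtp, an interferon-induced GTPase of the immunity-related family, had 5.06, 8.37, 6.91, 6.91 and 7.27 CPM, against 2.05, 3.19, 3.95, 4.26 and 2.47 CPM.

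The genes whose values followed Gfap most closely were found by Pearson correlation of log2 CPM over the 10 libraries, after taking the mean of each label away, which is a description since all 10 libraries share the ordering by which they were chosen. The 10 highest were Osmr (0.989), Cxcl16 (0.988), Sbno2 (0.987), Spi1 (0.987), Csf1r (0.983), Gpam (0.982), Slc22a4 (0.979), Fcgr2b (0.977), Aldh1l2 (0.977) and Lgmn (0.977), against a median of 0.14 over all genes. Spi1, the transcription factor PU.1 that sets myeloid identity, had 9.06, 7.97, 9.85, 9.04 and 7.21 CPM on the high side, against 4.51, 4.27, 6.73, 4.61 and 3.53 CPM on the low side and 2.49 to 3.37 CPM in the non-transgenic libraries. Sbno2, a transcriptional cofactor induced by Stat3-activating cytokines, had 42.8, 43.7, 46.7, 49.2 and 42.6 CPM, against 25.4, 25.2, 36.0, 31.8 and 23.6 CPM. Gpam, which starts triglyceride synthesis, had 88.0, 78.3, 89.2, 97.6 and 75.5 CPM, against 61.1, 55.6, 72.3, 63.1 and 52.8 CPM. Osmr of the pan-reactive astrocyte list and Csf1r of the general microglial list thus both stood among these 10. Fcgr2b, the inhibitory Fc receptor, had 17.2, 12.8, 16.7, 15.3 and 8.90 CPM, against 4.45, 3.35, 9.56, 4.41 and 2.39 CPM, with PS19/C3aR KO library 3 above library 1. At the other end stood C2cd2l (-0.919), the sterol dehydrogenase gene Nsdhl (-0.912), Gpatch11 (-0.897), the synaptic C1q-like gene C1ql3 (-0.883) and the endocytic GTPase gene Dnm1 (-0.878). C1ql3 had 69.0, 80.8, 71.6, 70.5 and 73.8 CPM, against 87.3, 101, 81.5, 99.8 and 97 CPM, and the sides did not overlap.

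**Figure D4:**
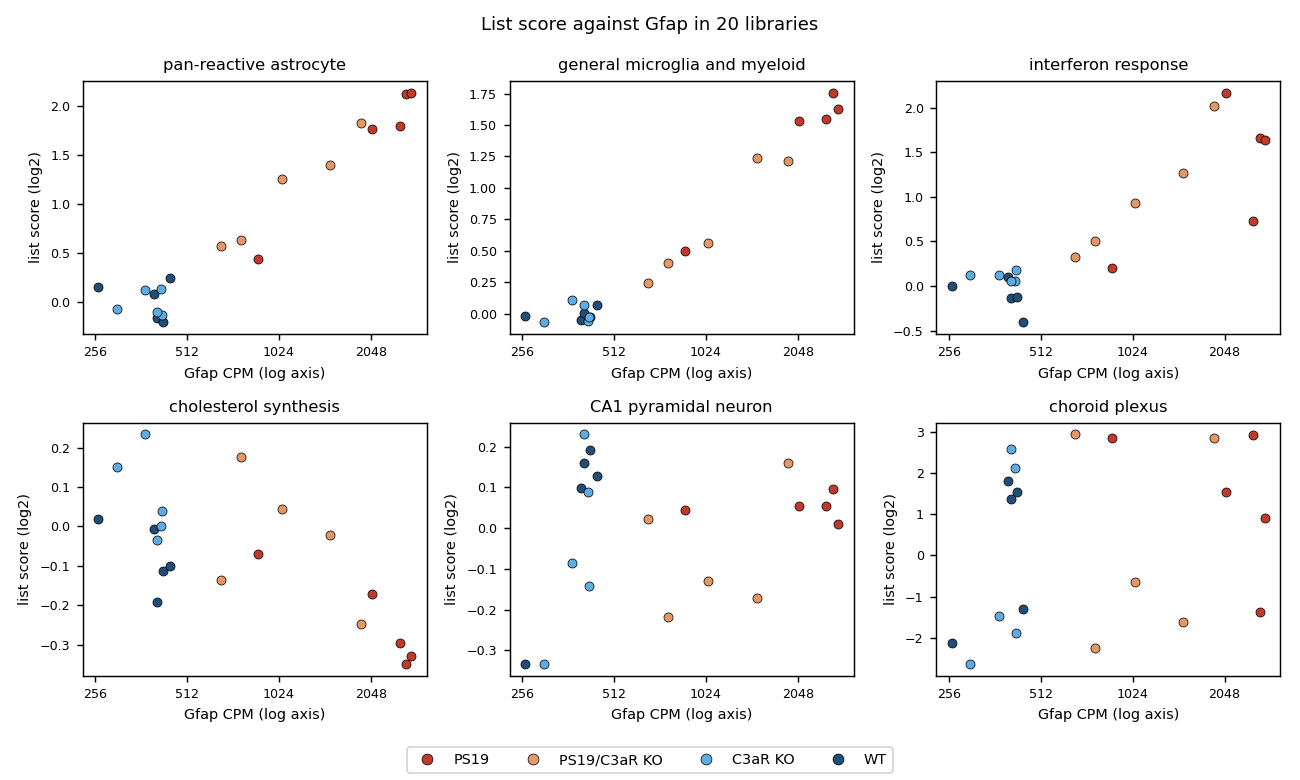
List score (vertical axis, log2, mean of the list minus its non-transgenic mean) against Gfap in CPM (log axis) for 6 lists in 20 libraries, 1 point each, coloured by label. Pan-reactive astrocyte and general microglial scores mostly rise with Gfap among the transgenic libraries, but not in strict order. PS19 library 5 has a lower pan-reactive score (0.44) than PS19/C3aR KO libraries 2 (0.62) and 5 (0.57), which have less Gfap. The interferon score is highest in PS19 library 2 and PS19/C3aR KO library 1, and the choroid plexus score spans -2.63 to 2.93. Among the non-transgenic libraries the choroid plexus score is lowest in WT library 2 (-2.13) and C3aR KO library 2 (-2.63), which also have the lowest Gfap.

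The median difference had the same sign within both labels for 29 of the 46 lists and opposite signs for 17. Within PS19/C3aR KO the difference is library 1 against libraries 2 to 5, and within PS19 it is libraries 1 to 4 against library 5, so each rests on a side of 1 library and is given as a description. Pan-reactive astrocyte genes had medians of 0.89 within PS19/C3aR KO and 1.27 within PS19, general microglial genes of 0.58 within PS19/C3aR KO and 1.11 within PS19, and cholesterol synthesis genes of -0.25 within PS19/C3aR KO and -0.30 within PS19. General astrocyte genes, by contrast, had -0.04 within PS19/C3aR KO and 0.40 within PS19, and border-associated macrophage genes -0.038 within PS19/C3aR KO and 0.68 within PS19. The choroid plexus, ependymal, thalamic, neutrophil, endothelial, CA1, CA3, inhibitory neuron and postsynaptic lists were also among the 17. The test of side by label was not run, since 2 of its 4 cells hold 1 library.

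**Figure D5:**
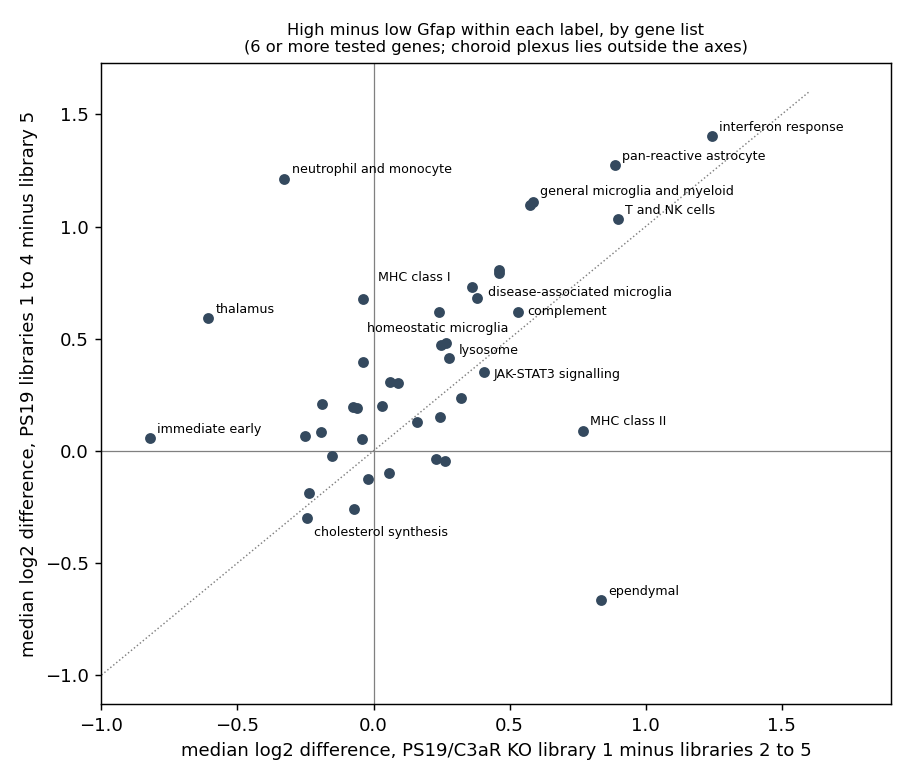
Median log2 difference of each gene list within PS19/C3aR KO (horizontal axis, library 1 minus libraries 2 to 5) and within PS19 (vertical axis, libraries 1 to 4 minus library 5). Each point is a list of 6 or more tested genes, and the dotted line marks equal values. Interferon response lies at 1.24 (horizontal) and 1.40 (vertical), cholesterol synthesis at -0.25 and -0.30, and choroid plexus, at 3.47 and -1.94, lies outside the axes.

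Set against the 10 non-transgenic libraries, the low-Gfap side still carried part of the glial pattern. All 5 high-Gfap libraries lay above all 10 non-transgenic ones for 1176 genes (6.98%), and all 5 low-Gfap libraries for 98 (0.582%). No label block enters such counts. With 4 PS19 libraries and 1 labelled PS19/C3aR KO on the high side, and the reverse on the low side, side and label cannot be told apart in them. In the general microglial list the counts were 30 of 31 for the high side and 17 of 31 for the low side, in the disease-associated list 23 of 30 for the high side and 10 for the low side, and in the lysosome list 28 of 33 for the high side and 6 for the low side. Of 14 pan-reactive astrocyte genes 12 did so on the high side and 2 on the low side (Vim and Osmr, beside Gfap), and of 29 interferon genes 21 on the high side and 2 on the low side. Of 17 homeostatic microglial genes 13 did so on the high side and 0 on the low side, although the list score, 0.46 to 0.89 on the high side and 0.11 to 0.47 on the low side, was above the non-transgenic range of -0.11 to 0.081 on both. Below all non-transgenic libraries lay 112 genes (0.665%) on the high side and 16 (0.0950%) on the low side, and 8 of the 112 were cholesterol synthesis genes.

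Whether the same genes follow Gfap without the transgene was tested in the 10 non-transgenic libraries, which had no part in the split, as the slope per doubling of Gfap with genotype as a block. Gfap spanned 301 to 424 CPM in C3aR KO and 262 to 449 CPM in WT, a far narrower range. Of 16188 genes edgeR's quasi-likelihood test called 345 with a positive slope (2.13%) and 184 with a negative one (1.14%) at an adjusted p below 0.05. Over the same 16188 genes 3713 had an unadjusted p below 0.05 in edgeR, DESeq2 called 1735 and limma-voom 664. Lists of glial and immune genes held 0 to 3 calls each: 0 of 31 general microglial genes (5 at an unadjusted p below 0.05, 1 called by DESeq2, 0 by limma-voom), 0 of 28 disease-associated genes (5, 4 and 0), 0 of 27 interferon genes (3, 0 and 0), and 0 of 25 cholesterol synthesis genes (2, 1 and 0). With 2.13% and 1.14% of all genes called, 0 calls in lists of this size lie close to the share over all genes. An unadjusted p below 0.05 was found for 13 of 22 myelin genes, against 3713 of all 16188 genes. Of the 22, DESeq2 called 8 and limma-voom 0, with a median slope of 0.69. Of 26 JAK-STAT3 genes 9 had such a p, but DESeq2 called only 2, against 1735 of all 16188, and limma-voom 0. The disease-associated oligodendrocyte list held 3 of 12 (C4b, Klk8 and Serpina3n), and Fkbp5 of the A1 list and Cd109 of the A2 list also had a called positive slope and C7 of the complement list a negative one. Serpina3n was called among 13 pan-reactive genes, with a slope of 1.87 (SE 0.29) and adjusted p = 0.0245, and C4b with 0.78 (SE 0.18) and adjusted p = 0.043. Vim had a slope of 0.62 (SE 0.30) and adjusted p = 0.25. Without WT library 2 and C3aR KO library 2, the 2 farthest from the median Gfap, edgeR called neither Serpina3n nor C4b. Their slopes were then 1.55 for Serpina3n (adjusted p = 0.65) and 0.64 for C4b (adjusted p = 0.81). Both genes were also higher on the high-Gfap transgenic side, but the sides were drawn on Gfap, so that part is a description only.

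Among the lists, most calls fell on neuronal and regional ones. Positive slopes were called for 6 of 25 postsynaptic genes (Camk2a, Camk2b, Gria1, Icam5, Ppp1r9b and Shank3), 5 of 12 CA1 genes, 5 of 13 CA3 genes and 3 of 15 dentate genes, and negative ones for 1 of 13 CA3 genes (Coch), 2 of 16 thalamic genes (Ntng1 and Rora) and 2 of 12 striatal genes (among them Drd1). The 10 with the lowest p were Spink8, a CA1 marker (2.42), Anxa11 (1.17), the kinase gene Mast3 (0.87), Slc9a4 (3.13), St18 (1.88), the synaptic pentraxin gene Nptx1 (1.30), Islr2 (0.95), Slc4a7 (0.77), Iqgap2 (1.66) and the predicted gene 4833415N18Rik (-2.52), all slopes per doubling of Gfap with adjusted p of 0.0243 to 0.0245 in edgeR. In the transgenic libraries the log2 difference between sides was 0.31 (SE 0.29) for Spink8 and -0.13 (SE 0.20) for Nptx1.

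These calls rested on few libraries. WT library 2 (262 CPM) and C3aR KO library 2 (301 CPM) lie farthest from the median Gfap, and without both edgeR called 0 of 16159 genes (1519 at an unadjusted p below 0.05). Leaving out 1 library gave 0 calls without WT 2, WT 4 or WT 5 (1561, 3534 and 3287 at an unadjusted p below 0.05), 6 without C3aR KO 2, 56 without WT 1, 78 without WT 3, 214 without C3aR KO 1, 344 without C3aR KO 4 and 2582 without C3aR KO 3. When the choroid plexus score was added to the fit 0 were called (1923 at an unadjusted p below 0.05), and this score was -2.13 in WT library 2 and -2.63 in C3aR KO library 2, the 2 lowest of the non-transgenic libraries. Its part in the slopes was not tested further. The CA1 score was -0.33 in each of the same libraries, below all other 18.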

How the data were processed

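Polyadenylated hippocampal RNA of 20 libraries was analysed, 10 of them in depth. Per the labels' protocols, the authors aligned 76-nt read pairs to mm10 with TopHat 2.0.9 and used htseq-count to count reads on the union of a gene's exons, so the deposited values are raw counts for 24513 genes, without normalization. DESeq2 is also named in the submitters' processing notes. Whether counting used strand is not given in the sources used here. Reads of a gene and of its antisense partner may therefore be mixed, and reads shared by near-identical genes may be split or lost. The 5 summary lines per file were left out, of which reads outside exons made up 17.4 to 25.4% of a library. The labels do not say that libraries came from separate animals, so a p-value reflects only how these libraries vary, in part perhaps technically. No pair of libraries of 1 group agreed within sampling noise (chi-square per degree of freedom 8.62 to 104).

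CPM are computed from plain library totals. High minus low came from edgeR 4.0.16 (R 4.3.3) with TMM, filterByExpr (minimum count 10, minimum total 15) and the C3aR label as a block, and the slope on log2 Gfap in non-transgenic libraries came from the same kind of fit with Gfap left out of the genes tested. DESeq2 1.42.0 and limma-voom (limma 3.58.1) were alternatives. Adjusted p-values are Benjamini-Hochberg over all genes of a comparison, at a threshold of 0.05. List scores use a prior count of 2. The fits were tested on simulated data. The members and the 46 gene lists were chosen with earlier results of these data known, and 51 genes stand in more than 1 list. Named genes are Gfap, C3ar1, Mapt and Prnp, the 3 tested members of each list with the highest mean CPM, the 8 highest and 8 lowest differences among genes whose sides do not overlap, the 10 most and 5 least correlated with Gfap, and the 10 called slopes with the lowest p; other names were added after their values were seen. A few of these genes are not reported here. Positions and promoters are RefSeq's (GRCm38.p6); 99.8% of tested genes had a RefSeq row.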

Additional observations from a re-analysis of the deposited data

Results flagged for a closer look

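Among the named genes, 320 sets of 5 libraries of 1 label were examined for a library far from the other 4. Such a library was found in 19 of the 320, which is close to the 1 in 20 that chance gives. No explanation was tested for any of them.

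PS19 library 5, the only PS19 library on the low side, stood below the other 4 PS19 libraries in genes that follow Gfap. It had 64.9 CPM of C1qa, where the others had 187 to 225, and 25.4 CPM of Sbno2, where they had 42.8 to 49.2. It also had 35.8 CPM of Tapbp, against 49.2 to 53.4 in the others, and 9.97 CPM of Slc22a4, against 14.7 to 16.2. These 4 values follow the boundary by which the sides were drawn, and the difference in them within PS19 is that of 1 library against 4.

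PS19 library 3 held most neutrophil reads of the series, with 19.3 CPM of S100a9, where the other PS19 libraries had 0.0697 to 0.693, 11.9 CPM of S100a8, against 0.0759 to 0.427, and 16.2 CPM of Ngp, against 0.0929 to 0.400. The same library had 1.55 CPM of Alas2, against 0.627 to 0.784, and 1016 CPM of the synaptic vesicle gene Syt1, against 1489 to 1532. PS19 library 2 had 53.4 CPM of Pdgfra, where the others had 66.4 to 71.4.

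PS19/C3aR KO library 1, the only one of its label on the high side, had 52.2 CPM of Stat2, where the other 4 had 30.4 to 36.3, and 94.6 CPM of Pde10a, against 75.1 to 80.0. PS19/C3aR KO library 4 had 2.68 CPM of F13a1, against 1.84 to 2.06, 51.1 CPM of Il33, against 43.3 to 45.3, 345 CPM of Adarb1, against 197 to 217, and 75.0 CPM of Foxp1, against 89.9 to 92.4. The remaining values were 6.25 CPM of Tm4sf1 in PS19/C3aR KO library 2, against 8.78 to 9.77, 144 CPM of Itpka in library 3, against 177 to 182, and 434 CPM of Rpl3 in library 5, against 459 to 465.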

How the results depend on the processing

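The count of genes called between the sides depended on the model and on single libraries. It was 0 in edgeR with TMM, with DESeq2 size factors, with either other filter, after adding the Rn45s share or the choroid plexus score to the fit, in limma-voom and with sides drawn on TMM-normalized CPM, where 1137 to 1662 genes had an unadjusted p below 0.05. It was 268 with DESeq2, 316 without the label as a block, 270 with log2 Gfap in place of the sides, 0 in PS19/C3aR KO libraries alone, 2 in PS19 libraries alone, and 0 to 118 when 1 library was left out, the highest without PS19/C3aR KO 3. Without PS19 library 5 and PS19/C3aR KO library 1 and without the block, an alternative added after seeing the data, it was 300. Medians kept their sign under all 23 alternatives for the pan-reactive astrocyte (0.81 to 1.22), general microglial (0.54 to 1.06), interferon (0.84 to 1.58), complement (0.17 to 0.65), lysosome (0.22 to 0.42) and cholesterol synthesis (-0.39 to -0.24) lists, among others, which the choice of sides helps to fix. The ependymal median kept its sign in 12 of 23, and the choroid plexus and CA3 medians in 16. The filter on mean CPM left no gene of the T and NK cell and red blood cell lists, which have no median under it.

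The slope in non-transgenic libraries called 529 genes, 1735 with DESeq2, 147 after adding the Rn45s share, 0 in C3aR KO libraries alone and 965 in WT libraries alone, 0 without the 2 libraries farthest from the median, 0 after adding the choroid plexus score, and 0 to 2582 when 1 library was left out. The cause was not tested. Gfap by label was -1013 CPM, -995 CPM after TMM, -0.90 on the log2 scale (exact p = 0.0714), and -1341 to -866 CPM when 1 library was left out (exact p = 0.0159 to 0.0873). The test of side by label was not run.

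Whether replicate numbers pair the libraries could not be told. Deviations of same-numbered libraries correlated at 0.051 to 0.50 between PS19/C3aR KO and PS19 and at -0.26 to 0.54 between C3aR KO and WT. PS19/C3aR KO libraries 3, 4 and 5 and C3aR KO libraries 1 and 2 were closest to their own number, and the others were not. List medians kept their sign for 38 of 46 lists with the replicate block. With the replicate block, 1 gene was called between the sides, 0 had a called slope in non-transgenic libraries, and Gfap by label, -1013 CPM, had an exact p of 0.0625, the smallest that 32 sign flips allow.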
